A study of Mus musculus with 4 samples.

Results

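The granzymes, perforin and their granule partners were examined in the m6A peak list of mouse natural killer (NK) cells. The 10 listed genes were Gzma, Gzmb, Gzmc, Gzmk, Gzmm, Prf1, Serpinb9, Serpinb6b, Srgn and Ctsc. Every distinct peak whose Ensembl gene identifier was that of a listed gene was taken. This gave 13 of 20727 distinct peaks, and they lay in 8 of the 10 genes. No peak was assigned to Gzmk or Gzmm. Of all annotated protein-coding genes, 46.3% had a peak.

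The data came from splenic NK cells of C57BL/6 mice, studied by MeRIP-seq. Here mRNA is fragmented, fragments carrying N6-methyladenosine (m6A) are captured with an antibody, and they are sequenced beside input fragments that met none. There were 2 m6A immunoprecipitates and 2 input libraries. Before sorting, the NK cells had been amplified in vivo by a plasmid encoding IL-15, so immunoprecipitates and inputs alike came from IL-15-driven cells. The methods give an age of 6 to 10 weeks for the mice of the study as a whole. Whether animals were pooled is not given in the sources used here. The peak list has 1 fold enrichment (immunoprecipitate over input) and 1 log10 p for each peak over all libraries together. It has no value per library, so the values below carry no replicate error, no comparison could be tested over samples, and the depth of the libraries is unknown.

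Granzymes are serine proteases that NK cells store in lytic granules and deliver into target cells through the pores that perforin makes. They are made as inactive precursors, trimmed by cathepsin C and held in the granule on serglycin, a proteoglycan, while intracellular serpins protect the killer cell from protease that leaks into its own cytosol. m6A is placed by the METTL3 complex mostly within the consensus DRACH (D being any base except C, R a purine and H any base except G), often near stop codons and in 3' untranslated regions (UTRs), and it is known for effects on the decay and translation of mRNA.

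For each of the 8 genes with a peak, 1 DRACH site is shown to give the sequence behind the signal. It is a site in the most significant peak of the gene, GGACT where there was one, then another GGAC form, then any DRACH, and among equals the one nearest the stop codon. Capitals mark the DRACH letters and the 10 flanking bases on each side are in lower case. All are written 5' to 3' on the strand of the gene, from GENCODE transcripts of GRCm38. A peak is wider than a site, so a match does not show which adenosine was methylated.
Gzma: gtggtggaaaGGACTcctgcaatgg
Gzmb: tctgaataaaGGACTgcaaagactg
Gzmc: gaaacacagcTAACTacaagaagca
Prf1: tagtaatgtgGGACTgcaatccctt
Serpinb9: gaagcaggctGAACAaaccaggagg
Serpinb6b: ggaagctgcaGAACAtagttggggc
Srgn: agcaaaaccaAGACCaaccagaaga
Ctsc: gcaagcaagaGGACCtgaggccaga

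The Gzma stretch (chr13:113094049-113095773, minus strand) runs from coding exon 5 across an intron into exon 6. The Gzmb stretch (chr14:56259311-56259335, minus strand) lies in the 3' UTR in exon 5. That of Gzmc (chr14:56231502-56231526, minus strand) sits on the stop codon itself, since the middle A of TAACT is the last base of the stop codon. The Prf1 stretch is at chr10:61304599-61304623 in exon 3, that of Serpinb9 at chr13:33017790-33017814 in exon 8, that of Serpinb6b at chr13:32978660-32978684 in exon 7 and that of Ctsc at chr7:88310488-88310512 in exon 7, all on the plus strand and in the 3' UTR. The Srgn stretch (chr10:62494882-62494906, minus strand) lies in coding exon 4. A GGAC form was thus present in the leading peak of Gzma, Gzmb, Prf1 and Ctsc, and absent from that of Serpinb9, Serpinb6b and Srgn. The leading peak of Gzmc held a GGAC, but its next letter was not A, C or T, so that match was not a DRACH.

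**Figure D1:**
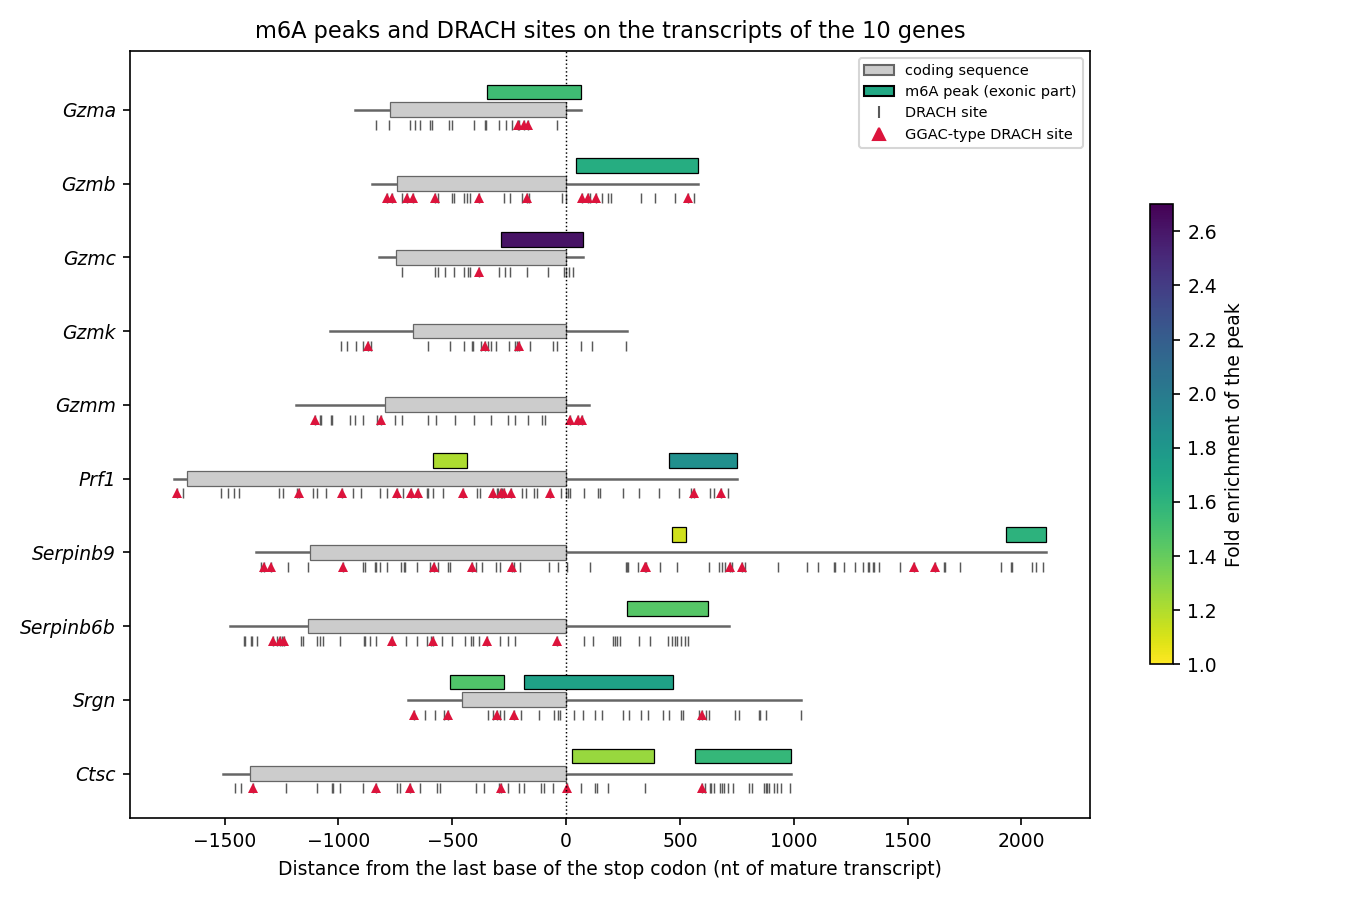
Transcripts of the 10 genes drawn to scale and aligned on the stop codon, with the distance from its last base in nt on the x axis. Grey boxes are coding sequence, coloured boxes the exonic part of each peak by fold enrichment, ticks DRACH sites and red triangles DRACH sites that begin with GGAC. Peaks of Gzma, Gzmb, Gzmc, Prf1, Serpinb9 and Ctsc end at the last base of the transcript, and Gzmk and Gzmm have no peak.

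Positions were read on the longest coding transcript of each gene and counted from the last base of the stop codon. Gzma, which encodes a trypsin-like granzyme, had 1 peak (ENSMUSG00000023132, chr13:113093825-113095939). Its fold enrichment was 1.53 with a log10 p of -624, the 35th most significant of all peaks in the list. Its exonic part of 415 nt covered exons 5 to 6 and held 348 coding nt and 67 nt of 3' UTR, which is the whole 3' UTR of this transcript. The peak was labelled 3' UTR by the authors, but most of it lay in the coding sequence. The transcript contained 3 GGAC sites, at -210, -187 and -169 nt, and all 3 were in the peak, close together in coding exon 5.

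Gzmb, whose product cleaves after aspartate and starts caspase-dependent death, also had 1 peak (ENSMUSG00000015437, chr14:56258838-56259376). Its enrichment was 1.65 (log10 p -165). The peak differed in place from that of Gzma. Its 539 nt lay wholly in the 3' UTR, from 43 to 581 nt past the stop codon, and filled nearly all of a 3' UTR of 581 nt. It held 4 of the 11 GGAC sites of the transcript, at 71, 96, 130 and 537 nt, so 3 of the 4 stood within the first part of the 3' UTR. The other 7 were upstream, in the 5' UTR and the coding sequence, under no peak.

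Gzmc, a neighbour of Gzmb in the granzyme cluster on chromosome 14, had the highest fold enrichment among the 10 genes. Its peak (ENSMUSG00000079186, chr14:56231441-56232379) had a value of 2.62 with a log10 p of -52.1. As in Gzma, the exonic part (358 nt, exons 4 to 5) was mostly coding, with 285 coding nt and 73 nt of 3' UTR, again the whole of it. The peaks of Gzma, Gzmb and Gzmc all ran to the last annotated base, as did 22.3% of all placed peaks, and took up similar parts of the transcript, 41.7% in Gzma, 37.5% in Gzmb and 40.0% in Gzmc. They differed in how much of that part was coding. Gzmf, a further granzyme of the cluster outside the 10 genes, had a peak that did not reach the end (22.7% of the transcript, centre in the coding sequence).

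Gzmk (ENSMUSG00000042385, chr13:113171608-113225908), the neighbour of Gzma, and Gzmm (ENSMUSG00000054206, chr10:79689020-79695261), whose product cleaves after methionine, had 0 peaks, and 0 peaks assigned to other genes overlapped them. Their transcripts were not poor in the motif. Gzmk had 26 DRACH sites in 1304 nt (19.9 per kb) and Gzmm had 25 in 1287 nt (19.4 per kb), beside 20.1 per kb in Gzma, 22.3 in Gzmb and 20.1 in Gzmc. Gzmm had 3 GGAC sites past its stop codon, at 19, 51 and 70 nt. The list gives no expression value, so a transcript with few reads and a transcript without m6A cannot be told apart here, and no fold enrichment can be given for either gene.

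Prf1, which encodes the pore-forming protein, had 2 peaks (ENSMUSG00000037202, chromosome 10, plus strand). The first (chr10:61303344-61303492) lay wholly in the coding part of exon 3, with its centre at -511 nt and an enrichment of 1.21 (log10 p -13.2). The second (chr10:61304383-61304680) covered the last 298 nt of the 3' UTR, with an enrichment of 1.85 (log10 p -121). The peak at the end was thus the higher and the more significant one. Perforin had 14 GGAC sites and 7 GGACT sites in its transcript, more of each than any of the other 9 genes. Its peaks held 3 of the 14 GGAC sites. The remaining 11 included a run of sites in the last part of the coding sequence, at -320, -284, -271 and -240 nt, where no peak was called.

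Serpinb9, the intracellular inhibitor of granzyme B, had the least significant leading peak of the 8 genes. Its first peak (ENSMUSG00000045827, chr13:33016315-33016375, 61 nt) had an enrichment of 1.12 (log10 p -3.15). Its second (chr13:33017778-33017957, 180 nt) had 1.61 and -9.59. Both lay in a 3' UTR of 2109 nt, centred 497 and 2019.5 nt past the stop codon, and the second ended at the last base of the transcript. They covered 6.94% of the transcript, the smallest share among the genes with a peak. Serpinb9 had 12 GGAC sites, and 0 of them were in a peak.

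Serpinb6b, a related serpin of the same cluster on chromosome 13, had 1 peak (ENSMUSG00000042842, chr13:32978621-32978978), with an enrichment of 1.45 (log10 p -14.8). Its 358 nt lay in the 3' UTR, 268 to 625 nt past the stop codon and 89 nt short of the end of the transcript. As in Serpinb9, none of its GGAC sites (0 of 8) lay in the peak, which held 9 DRACH sites of other forms. TAACC made up 3 of these.

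Srgn, which encodes the serglycin core protein, had 2 peaks and the largest share of its transcript in peaks, 51.6%. The first (ENSMUSG00000020077, chr10:62497810-62507765) spanned 9956 nt of the genome, but most of that was an intron, and its exonic part was 238 nt in exons 2 to 3. It was enriched 1.47-fold (log10 p -39.4). The authors labelled it 5' UTR, whereas 51 nt of it were 5' UTR and 187 nt coding. The second (chr10:62494397-62495049) had an enrichment of 1.73 (log10 p -122) and crossed the stop codon, with 184 coding nt and 469 nt of 3' UTR. Srgn was the only one of the 10 genes with a peak over the boundary of the 5' UTR and the coding sequence.

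Ctsc, which encodes the dipeptidyl peptidase that activates granzyme precursors, was assigned 3 peaks (ENSMUSG00000030560, chromosome 7, plus strand). Its longest coding transcript overlapped none of the 3, so the peaks in the 3' UTR were read on the principal isoform. The first peak in the 3' UTR (chr7:88309930-88310289, 360 nt) had an enrichment of 1.26 (log10 p -15.0). The second (chr7:88310469-88310888, 420 nt) covered the last part of the 3' UTR, with an enrichment of 1.57 (log10 p -26.9). The third (chr7:88278787-88278847, 61 nt) had the higher fold enrichment of 2.53 but a log10 p of -1.94. It overlapped 0 nt of any Ctsc exon and all of its 61 nt lay in an exon of Gm26522, a lincRNA on the opposite strand. Reads of that RNA and of unspliced Ctsc cannot be told apart in the list. The highest value listed for Ctsc therefore does not lie on a known Ctsc mRNA.

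The peaks of these genes were set beside all peaks of the list. The median fold enrichment was 1.57 over the 13 peaks (interquartile range 1.45 to 1.73) and 2.66 over all 20727 (1.73 to 9.48). It was 2.21 over the 15721 peaks that overlapped exons of the longest coding transcript. A fold enrichment of at least 2 was reached by 2 of 13 peaks, beside 63.9% of all peaks, and these were the peak of Gzmc and the Ctsc peak outside its exons. At least 5 was reached by 0 of 13, beside 34.6%. Of the 13 values, 9 were under the first quartile of the list and 0 were above its median.

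Significance gave the opposite picture. A p under 0.001 was found for 12 of 13 peaks, beside 61.5% of all peaks, and the Ctsc peak outside its exons was the exception. The median log10 p was -26.9, beside -4.1. The leading peaks of Gzma, Gzmb, Srgn and Prf1 were all within the most significant 1.95% of the list. Among the peaks with a log10 p of -100 or lower, 72.8% of 529 were enriched at least 2-fold, and 0 of these 4 were. Their values ran from 1.53 to 1.85, beside a median of 2.76 for the 529. The value for Gzma was above that of 4.73% of these peaks, that for Gzmb above 10.4%, that for Srgn above 14.2% and that for Prf1 above 20.8%. The p-value depends on the number of reads as well as on the enrichment. Read numbers are not in the list, and their part in this was not tested.

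**Figure D2:**
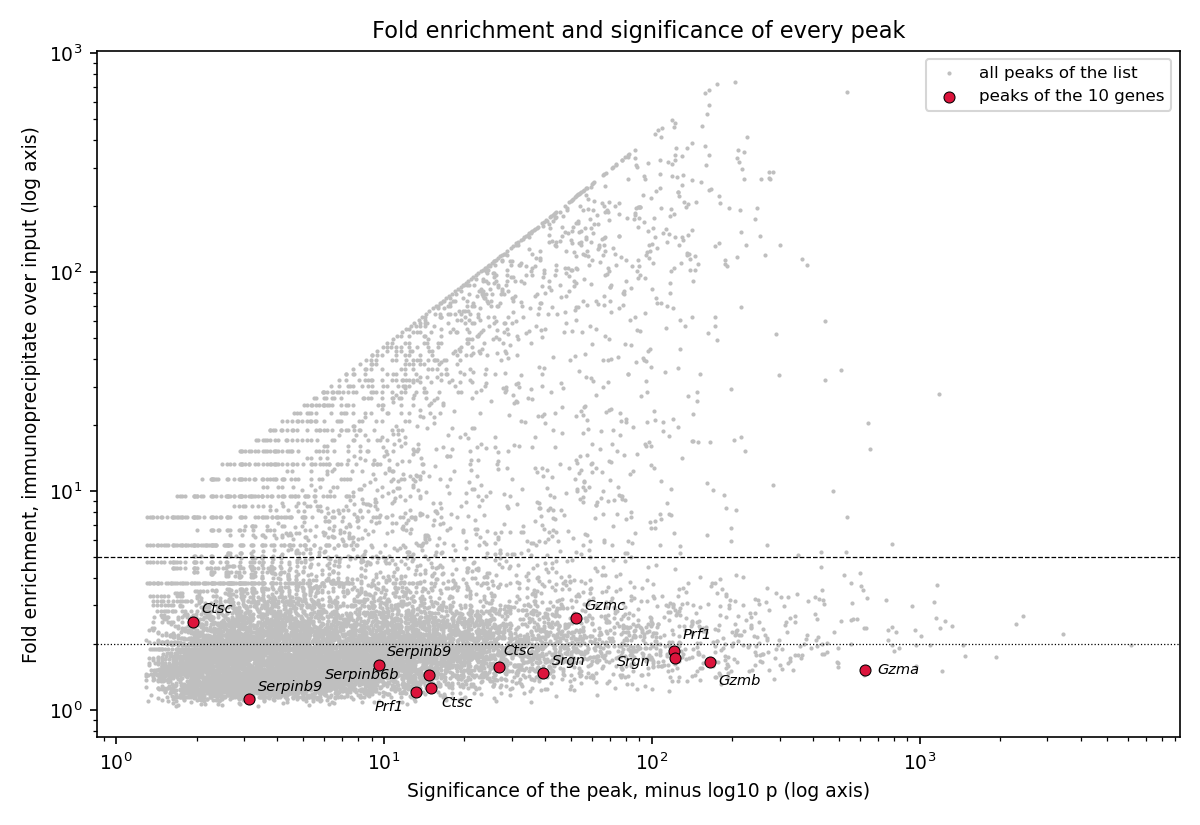
Fold enrichment (log axis) against significance as minus log10 p (log axis) for every distinct peak in grey and for the 13 peaks of the listed genes in red, with dotted and dashed lines at fold enrichments of 2 and 5. The red points lie low on the plot, from 1.12 to 2.62, and reach far to the right, up to a log10 p of -624 for Gzma.

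Position along the transcript was compared next. On the longest coding transcript 10 of the 13 peaks could be placed. The centre lay in the 3' UTR for 6 of the 10 (60.0%, 95% Wilson interval 31.3 to 83.2), beside 56.5% of all placed peaks. The remaining 4 centres were in the coding sequence (40.0%, 16.8 to 68.7), beside 33.6%, and 0 were in the 5' UTR, beside 9.94%. These shares differed from those of the list by less than their counting intervals. The region given by the authors was 3' UTR for 10 of 13 peaks (76.9%, 49.7 to 91.8), beside 53.3% of all peaks. Of the 8 placed peaks with that label, the centre lay in the coding sequence for 2, those of Gzma and Gzmc. Among all placed peaks labelled 3' UTR this was so for 14.6%.

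The end of the transcript was covered by 5 of the 10 placed peaks, beside 22.3% of all placed peaks. By gene, 5 of 7 had a peak over the last base (71.4%), beside 35.4% of 9614 genes. The 5 were Gzma, Gzmb, Gzmc, Prf1 and Serpinb9, and with Ctsc on its principal isoform the count was 6 of 8. Serpinb6b and Srgn were the genes whose peaks stopped short. This property was noticed after the values were seen. In Prf1, Serpinb9 and Srgn, the genes with 2 placed peaks, the peak nearer the 3' end had the higher fold enrichment and the lower p. Over all 3976 genes with at least 2 placed peaks, the last peak had the highest fold enrichment in 45.1% and the lowest p in 52.6%.

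The peaks took up a larger part of these transcripts than of most. The median share of the transcript in peaks was 37.5% over 7 genes, from 6.94% in Serpinb9 to 51.6% in Srgn, beside 12.1% over all 9614 genes (interquartile range 5.45 to 28.2). The median exonic length of a peak was 328 nt, beside 203 nt. The transcripts of Gzma (996 nt), Gzmb (1436 nt) and Gzmc (894 nt) were also among the shorter ones of the 10. The part of transcript length in this share was not tested.

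Whether the peaks marked the part of each transcript that is rich in the consensus was asked by counting sites. A DRACH site lay in 10 of 10 placed peaks, beside 90.6% of all placed peaks, and any GGAC lay in 6 of 10, beside 55.0%. Over the 7 genes there were 71 DRACH sites in 3249 nt of peak, or 21.9 per kb (exact Poisson interval 17.1 to 27.6). The rest of the same transcripts had 22.2 per kb (19.4 to 25.4). For GGAC the values were 3.69 per kb in peaks (1.91 to 6.45) and 4.43 per kb outside (3.22 to 5.94). The intervals overlapped widely. They cover counting error over pooled sites only, and a difference in site density between peaks and the remaining sequence was not tested. Over all 9614 genes DRACH density was 20.3 per kb in peaks and 20.3 per kb outside. This density pools peaks of every length, with exonic parts of up to 24100 nt. It is a different measure from the motif search of the paper, which reported enrichment of DRACH motifs in the m6A peaks.

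By gene, the share of DRACH sites in peaks followed the share of length. It was 40.0% of sites and 41.7% of length in Gzma, and 37.5% of each in Gzmb. In Prf1 it was 17.2% of sites and 18.1% of length, and in Srgn 47.4% and 51.6%. Ctsc stood apart, with 48.1% of its DRACH sites in 31.3% of its length. This came from the peak at the end of its 3' UTR, which held 20 DRACH sites in 420 nt, or 47.6 per kb. Only 0.779% of the 11932 placed peaks of at least 100 nt were as dense or denser, and their median was 19.7 per kb. Those were read on longest coding transcripts, and Ctsc on its principal isoform. The peak was singled out as the densest of the listed genes. The other 3' UTR peak of Ctsc held 13.9 per kb, and 74.5% were as dense or denser. Of the 20 sites in the peak at the end, 1 was of a GGAC form, and the commonest was AGACA with 4.

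**Figure D3:**
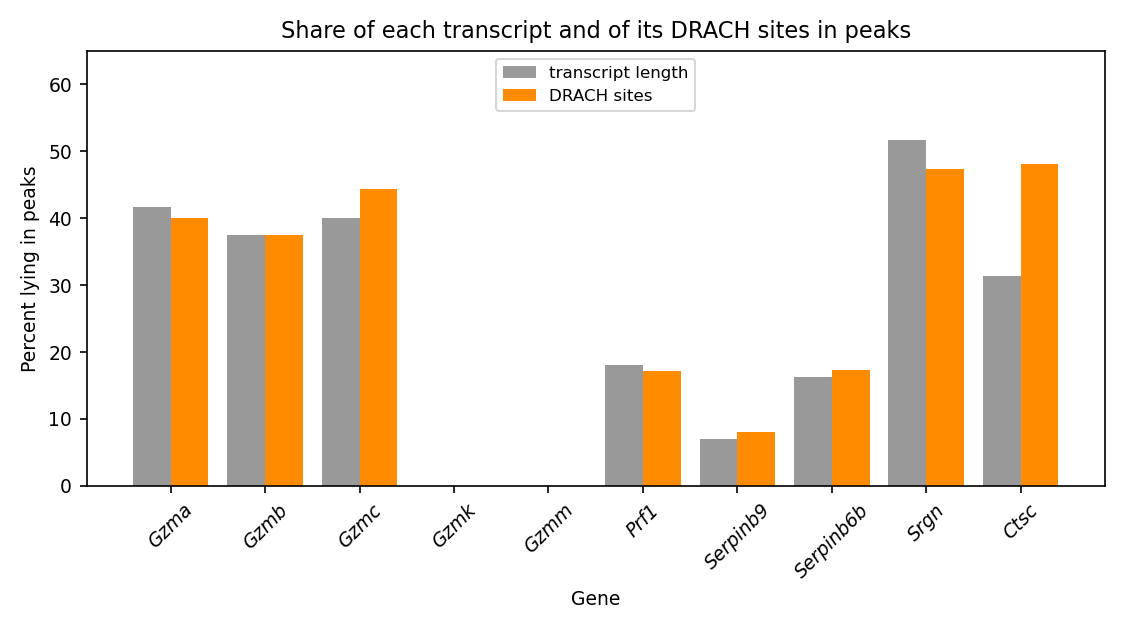
Percent of the transcript length (grey) and of its DRACH sites (orange) that lie in peaks, for each of the 10 genes, with Ctsc on its principal isoform. The 2 bars are of similar height in each gene except Ctsc, at 31.3% and 48.1%, and both are at 0 in Gzmk and Gzmm.

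Reads of related genes can be assigned to the wrong copy, so the sequences under the peaks were compared with those of the family. Gzmb and Gzmc were 76.7% identical over their aligned coding sequence, the closest pair involving Gzma, Gzmb or Gzmc. Their transcripts shared an identical run of 49 nt, and the longest run of Gzmc with any other granzyme was 68 nt, with Gzme. Within a peak the longest run shared with any of 9 other granzymes was 26 nt for Gzmb, 29 nt for Gzmc and 13 nt for Gzma. Serpinb9 was 86.5% identical to Serpinb9b, with a shared transcript run of 62 nt. Serpinb6b was 87.9% identical to Serpinb6c, with a shared transcript run of 73 nt. The 3' UTR peaks of Serpinb9 and Serpinb6b shared an identical run of at most 14 nt (Serpinb9) and no run of 12 nt (Serpinb6b) with 11 relatives. Only identical runs were searched and the list has no mapping values, so wrong assignment of reads was not tested. Sites lying wholly within the coding sequences of Gzmb and Gzmc were also compared. Of the 17 such DRACH sites of Gzmb, 9 had a DRACH at the aligned position of Gzmc, and 1 of 5 GGAC sites did. The DRACH centred on the last base of the stop codon, present in both genes, runs past the coding sequence and was not counted here.

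A wider list of 30 granule genes was examined beside the 10. A peak was found in 20 of them (66.7%), beside 46.3% of all annotated protein-coding genes, with 34 peaks and a median fold enrichment of 1.82. The 10 without one were Gzmd, Gzme, Gzmg, Gzmn, Serpinb9d, Serpinb9e, Serpinb9g, Serpinb6c, Serpinb6d and Serpinb6e, all of them relatives of the granzymes and serpins above. The 26 peaks with a p under 0.001 had a median of 1.74 and ran from 1.16 to 56.9. Cst7, which encodes cystatin F, an inhibitor of cathepsin C, had an enrichment of 1.74 (log10 p -24.1). Serpinb6a, a relative of Serpinb6b, had 1.81 (-114) and, outside the exons of its longest coding transcript, 2.21 (-1.49). The authors labelled the peak at 2.21 as an exon of ENSMUSG00000085457. Calr, the endoplasmic reticulum chaperone calreticulin, had 1.74 and -130. Lamp1, the granule membrane protein known as CD107a, had 1.63 and -44.3. Nkg7, a granule protein needed for degranulation, was higher, at 3.28 with a log10 p of -322, and its peak covered 100% of the transcript.

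All 7 other cathepsins of the wider list, lysosomal proteases related in function to cathepsin C, had a peak. Ctsw, a cathepsin of cytotoxic lymphocytes, had 2 peaks with enrichments of 1.26 (log10 p -10.7) and 1.58 (-65.6). Ctsb had 3, at 1.16 (-43.8), 1.98 (-969) and 1.71 (-39.6). Ctsh, whose product is an aminopeptidase, also had 3, at 1.72 (-21.0), 1.46 (-10.2) and 1.94 (-64.4). These stayed under 2-fold, as did Ctss at 1.06 (-2.9) and 1.55 (-154) and Ctsd, the aspartic protease, at 1.28 (-94.5). Ctsl was above it at 2.35 (-25.0). The peak of Ctsz, in the 5' UTR, had 5.69 with a log10 p of only -2.36.

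Fold enrichments of at least 5 occurred in 10 of the 34 peaks of the wider list, beside 34.6% of all peaks. A p under 0.001 was found for 5 of the 10, beside 26 of all 34 and 61.5% of all peaks in the list. Gzmf, a granzyme of the same cluster as Gzmc, had an enrichment of 5.06 (log10 p -1.96). Serpinb9c and Serpinb9f had 28.4 and 17.1, with a log10 p of -5.91 and -3.33, and in each the peak covered 100% of the transcript. Serpinb9b, the closest relative of Serpinb9, had a highest value of 17.1 with a log10 p of -3.33, beside 1.61 and -9.59 in Serpinb9. The highest peaks of Lgmn (32.7), which encodes the protease legumain, and Lamp2 (56.9) overlapped 0 nt of the longest coding transcript of their gene. Gzmf thus had the highest fold enrichment and the least significant peak of the 4 granzymes with a peak.

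**Figure D4:**
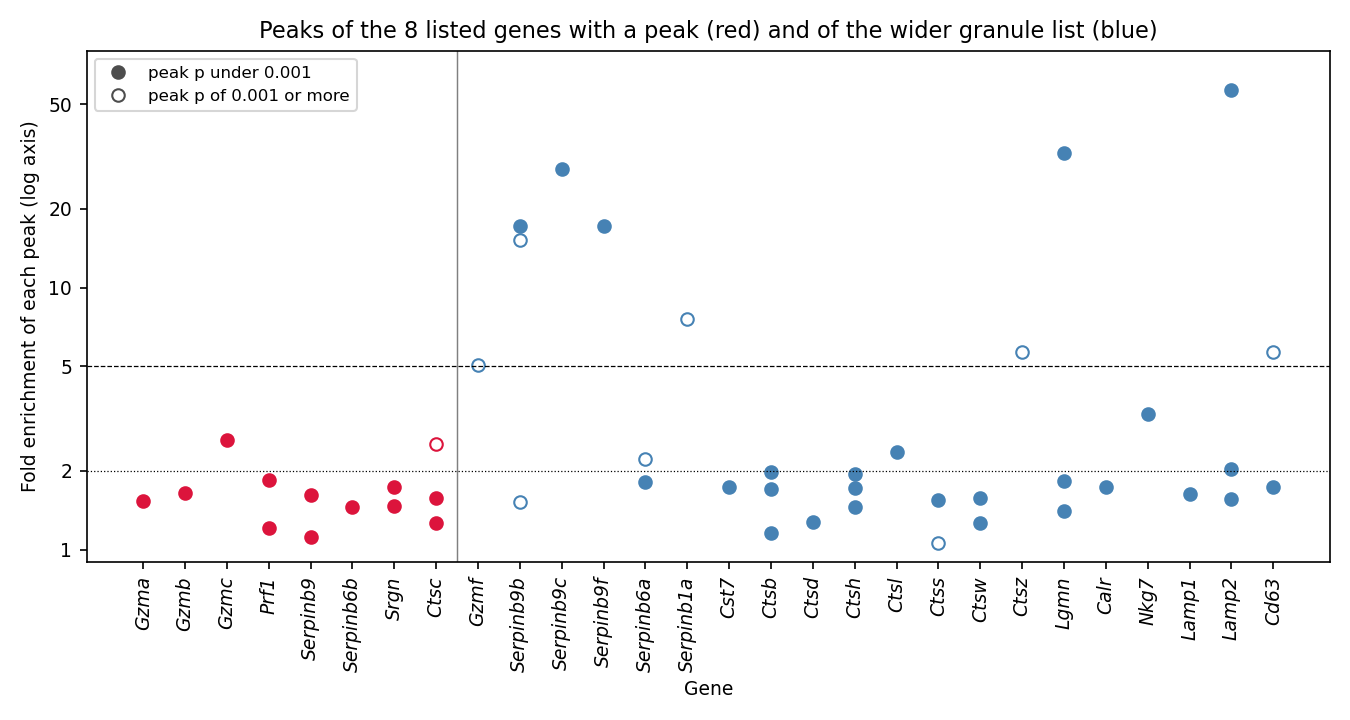
Fold enrichment of each peak (log axis) for the 8 listed genes with a peak in red and for the 20 genes of the wider granule list with a peak in blue, filled where the peak p is under 0.001. Listed genes stay at or below 2.62, while blue points above 5 are found in 9 genes and are open in 5 of them for at least 1 such peak.

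The markers of the sorted cells were checked by the presence of a peak, with fold enrichments given beside it. A peak was found in 7 of 7 NK cell markers (Ncr1, Klrb1c, Eomes, Tbx21, Klrk1, Il2rb and Itga2), with a median fold enrichment of 1.38 over 20 peaks. A peak was also found in 4 of 4 myeloid markers. Their most significant peaks were those of Csf1r (1.64, log10 p of -322), Lyz2 (1.9, -143), Itgax (1.79, -121) and Adgre1 (1.38, -35.3). It was found in 3 of 5 T cell markers but not in Cd4 or Cd8a, in 2 of 4 B cell markers and in 1 of 5 mast cell and neutrophil markers. Beside these counts, 46.3% of all annotated protein-coding genes had a peak. The median fold enrichment was 1.64 over 5 peaks of myeloid markers and 4.74 over 8 peaks of T cell markers. For B cell markers it was 5.14 over 2 peaks, and the 1 peak of a mast cell or neutrophil marker had 1.81. The cells had been sorted by flow cytometry as NK cells, and the list gives no purity or expression value. The paper reports high purity for its sorted splenic NK cells in general, but gives no value for these libraries by name. Serglycin and several cathepsins are made by myeloid cells too, and the part of myeloid RNA in the peaks of Srgn, Ctsc and the other cathepsins was not tested.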

How the data were processed

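MeRIP-seq was done on splenic NK cells with 2 m6A immunoprecipitates and 2 inputs. Per the methods of the study and the submitters' processing notes, the authors trimmed reads, aligned them with HISAT2, called peaks with exomePeak and annotated them with ChIPseeker. The submitters' notes name GRCm38. The deposited fold enrichment is a ratio of immunoprecipitate over input made by the authors. The deposited significance is a score, the log10 of the unadjusted peak p-value, at most -1.3. The deposited width is the genomic span, introns included. The list pools all libraries and has 0 columns per sample, so depth and replicate error are unknown. How replicates were combined is not given in the sources used here.

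Of 20751 rows, 24 repeats were dropped. Gene models and sequences were those of GENCODE M21 (GRCm38). Exonic parts were mapped to the longest coding isoform of the gene (15721 peaks), with the region read at their centre. The principal isoform by the APPRIS tag was used for Ctsc and as an alternative. Motifs were searched on the strand of the gene by their central A, overlaps included, with Python 3.11.15. Runs shared between relatives were searched from 12 nt, and coding sequences were aligned with Biopython 1.88. Placement and motif search were tested on simulated data. Intervals are 95% and cover counting error only. Peaks and genes are not replicates, and no test was run. Genes with a like pattern across samples could not be sought.

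The 10 genes and the lists were chosen with earlier results of these data known. The text names all 10 genes with every peak, and the wider-list granzymes, Serpinb6 and Serpinb9 relatives, cystatin F and cathepsins. Nkg7, Calr, Lamp1, Lamp2, Lgmn, Csf1r, Lyz2, Itgax and Adgre1 were named after their values were seen.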

Additional observations from a re-analysis of the deposited data

How the results depend on the processing

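Of 28 alternatives for 7 results, 20 stayed within the limits used (a factor of 1.5 for counts and medians, the counting interval for shares and densities) and 8 moved. At a fold enrichment of at least 2, 2 peaks in 2 genes remained, with a median of 2.58, and 0.0% of the 1 peak that could be placed had its centre in the 3' UTR. At a fold enrichment of at least 5, 0 peaks in 0 genes remained. With the centre of the genomic span the 3' UTR share was 85.7% of 7 peaks. RRACH, a narrower motif by construction, occurred 15.4 times per kb of peak. The principal isoform (chosen after seeing the data) gave a 3' UTR share of 66.7% and 23.8 DRACH sites per kb. No paired analysis was possible because the list has no value per sample, and leaving out single replicates was not run for that reason too.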
